A study of Mus musculus with 24 samples.

Results

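Zfp36, Zfp36l1, Zfp36l2, Btg1 and Btg2, which code for regulators of messenger RNA decay, were followed in mouse thymocytes before and after engagement of the T cell receptor complex. They were chosen by gene symbol, and all 11 probe sets that list 1 of these symbols alone were taken, out of 45037 probe sets that are not controls. The choice was made with earlier results of these data known. At the level of genes these are 5 of 18193. Zfp36 had 1 probe set, Zfp36l1 and Btg2 had 2 each, and Zfp36l2 and Btg1 had 3 each, and no probe set listed a member among several symbols.

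Zfp36, Zfp36l1 and Zfp36l2 are CCCH zinc finger proteins that bind AU-rich elements in the untranslated tails of messenger RNAs and bring in the CCR4-NOT deadenylase, which shortens the poly(A) tail and starts decay. Btg1 and Btg2 belong to the BTG/TOB family of antiproliferative adaptors, which bind the deadenylase subunits Cnot7 and Cnot8. In the T cell lineage, Zfp36l1 and Zfp36l2 are known from mice to be needed for orderly progress through thymocyte development, and Btg1 and Btg2 for keeping T cells quiescent.

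Thymocytes positive for both CD4 and CD8 (double-positive, DP) were sorted from 12 male mice of strain Black 6J aged 8 weeks, and their RNA was hybridised to Affymetrix Mouse430_2 arrays. After a rest in culture, cells of each mouse were held for 30 min on plate-bound anti-CD3, which cross-links the receptor complex of T cells, or on plates without antibody (untreated). The 4 genotypes, with 3 mice each, were the combined knockout ElkSapKO, the single knockouts ElkKO and SapKO, and wild type (WT), which gives 8 groups of 3 arrays. Sap is read here as Elk4 (SAP-1) and Elk as Elk1, ternary complex factors that act at DNA as partners of serum response factor, and the series asks what these factors do in positive selection. The labels do not say how the alleles were made, whether a gene is missing from the whole animal, or whether WT mice were littermates. Precision is limited by the number of arrays, and a lower signal in a bulk sample can come from fewer cells of a type or from less RNA per cell, which cannot be told apart. Values are log2 signals, and a difference of 1 stands for a 2-fold change.

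Promoters are shown for the members with an entry in the RefSeq table used here (4 of the 5, all but Zfp36l2), because the deleted proteins act on DNA next to serum response factor sites. Each sequence is the 250 bases upstream of the RefSeq start on build GRCm38.p6, on the strand of the gene. Capitals mark matches to 6 motifs searched on both strands: the CArG box bound by serum response factor, the ETS core CCGGAA, the Egr-type site GCGNGGGCG, the AP-1-like site TGANTCA, the cyclic AMP element TGACGTCA and the TATAAA box. No marked match overlaps another.
Zfp36: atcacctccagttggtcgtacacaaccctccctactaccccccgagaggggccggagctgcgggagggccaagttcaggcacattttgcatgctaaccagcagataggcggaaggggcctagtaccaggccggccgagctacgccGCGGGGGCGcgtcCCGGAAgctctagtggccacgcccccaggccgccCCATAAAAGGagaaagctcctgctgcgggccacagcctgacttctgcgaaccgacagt
Zfp36l1: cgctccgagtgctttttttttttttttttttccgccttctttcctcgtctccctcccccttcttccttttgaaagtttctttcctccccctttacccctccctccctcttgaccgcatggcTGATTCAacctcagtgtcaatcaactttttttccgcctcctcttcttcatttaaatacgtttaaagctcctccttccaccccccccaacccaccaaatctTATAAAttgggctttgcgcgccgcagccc
Btg1: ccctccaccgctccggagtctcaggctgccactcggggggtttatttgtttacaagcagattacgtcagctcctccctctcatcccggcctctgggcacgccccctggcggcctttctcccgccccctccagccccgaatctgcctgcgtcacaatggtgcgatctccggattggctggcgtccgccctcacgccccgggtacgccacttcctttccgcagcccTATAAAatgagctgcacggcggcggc
Btg2: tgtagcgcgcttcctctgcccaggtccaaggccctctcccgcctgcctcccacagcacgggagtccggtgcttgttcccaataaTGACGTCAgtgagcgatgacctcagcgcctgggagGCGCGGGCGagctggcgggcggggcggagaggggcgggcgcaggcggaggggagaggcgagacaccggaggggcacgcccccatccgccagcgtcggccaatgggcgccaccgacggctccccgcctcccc

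The Zfp36 window lies at chr7:28379229-28379478 on the minus strand. It held a CArG box from −58 to −49, an ETS core from −92 to −87 and an Egr-type site from −105 to −97, counted from the start. The Zfp36l1 window, chr12:80113014-80113263 on the minus strand, held an AP-1-like site from −129 to −123 and a TATAAA box from −29 to −24. The Btg1 window, chr10:96616751-96617000 on the plus strand, held a TATAAA box from −26 to −21. The Btg2 window, chr1:134079156-134079405 on the minus strand, held a cyclic AMP element from −166 to −159 and an Egr-type site from −131 to −123. Among 32536 distinct mouse promoter windows of the same length, 1.48% held a CArG box, 12.1% CCGGAA, 4.74% GCGNGGGCG, 6.73% TGANTCA, 1.56% TGACGTCA and 12.3% TATAAA. These matches describe the letters only, and binding was not measured.

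All 11 probe sets gave a mean signal above 5.07, the highest signal of Xist on any of these arrays from male mice, and the lowest mean was 6.03 for Zfp36l2 probe set 1439054_at. The double-positive label was checked by level: 9 of 12 double-positive thymocyte markers were measured, all with a mean of at least 6 and a median of 11.2. Means of at least 6 were found for 1 of 5 B cell markers (Cd79b), 1 of 8 macrophage and dendritic markers, 0 of 6 granulocyte and 0 of 2 erythroid markers, 1 of 6 epithelial and stromal markers (Pecam1) and 2 of 5 mature T and NK cell markers (Klf2 and Il7r). Elk4 averaged 7.06 and 7.59 in untreated and stimulated ElkSapKO cells and 7.05 and 7.50 in SapKO cells, against 10.5 and 10.6 in WT cells. The Elk1 probe set averaged 4.39 to 5.0 over the 8 groups, within the range of Xist, so it does not check the ElkKO label. One array, ElkSapKO mouse 2 untreated, differed from the rest: its log2 values relative to each probe set's median had an interquartile range of 0.782, against 0.182 to 0.383 on the other arrays. The excess of the 3′ over the 5′ Actb control probe set, a measure of RNA integrity and labelling, was 0.714 ± 0.188 in ElkSapKO, 0.495 ± 0.110 in ElkKO, 0.195 ± 0.025 in SapKO and 0.224 ± 0.074 in WT (SD, 6 arrays each). The dap spike-in read 6.00 to 6.60 on 8 arrays (those from SapKO mice 1 and 3 and from WT mice 1 and 2) and 8.81 to 9.66 on the other 16.

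Zfp36 responded most steeply of the members: its signal rose within 30 min in all 4 genotypes, 4.56-fold on average, and in 12 of 12 mice. In ElkSapKO cells probe set 1452519_a_at read 9.99, 10.29 and 10.60 in mice 1 to 3 after anti-CD3 and 8.05, 8.60 and 8.56 untreated. In ElkKO cells it read 11.12, 11.24 and 10.90 after anti-CD3 and 8.78, 8.66 and 8.45 untreated. Stimulated and untreated groups were thus more than 1 log2 unit apart in both knockouts, while stimulated ElkSapKO cells stayed below stimulated ElkKO cells. In SapKO cells it read 11.20, 10.92 and 11.20 after anti-CD3 and 9.10, 8.99 and 9.17 untreated. In WT cells it read 11.28, 11.31 and 11.25 after anti-CD3 and 8.85, 9.22 and 8.60 untreated. The 3 stimulated WT values lay within a narrow band, above every other stimulated value of the series.

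The log2 response of Zfp36 was 1.89 ± 0.17 in ElkSapKO (adjusted p = 2.0e-06), 2.46 ± 0.17 in ElkKO (adjusted p = 3.1e-08), 2.02 ± 0.17 in SapKO (adjusted p = 9.0e-07) and 2.39 ± 0.17 in WT (adjusted p = 4.2e-08), with SE from limma and Benjamini-Hochberg adjustment over all 45037 probe sets. Averaged over the genotypes it was 2.19 ± 0.09 (adjusted p = 3.7e-13). Within mice the change ran from 1.69 to 2.65. The ElkSapKO response missed the threshold when the 2 ElkSapKO groups were fitted alone (adjusted p = 0.159).

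**Figure D1:**
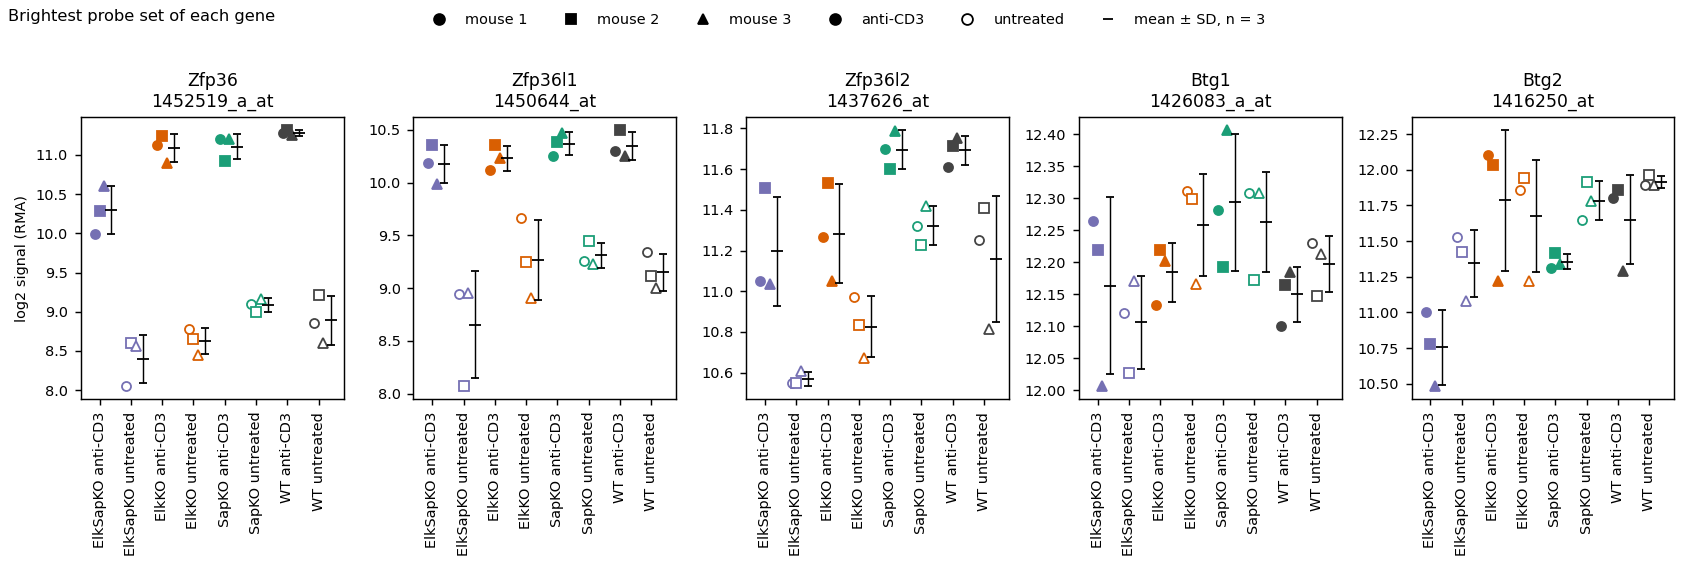
Log2 signal (vertical axis, a separate scale for each gene) of the brightest probe set of each gene in the 8 groups, with filled symbols for anti-CD3, open symbols for untreated, 1 shape per mouse number, and bars for mean ± SD (n = 3). Stimulated Zfp36 values sit at 9.99 to 10.60 in ElkSapKO and at 11.25 to 11.31 in WT, and Btg1 values lie within 12.01 to 12.41 in every group.

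Zfp36l1, which acts on AU-rich transcripts as Zfp36 does, also rose, by a smaller factor and at both of its probe sets. Probe set 1450644_at read 10.19, 10.35 and 9.99 in ElkSapKO mice 1 to 3 after anti-CD3 and 8.94, 8.07 and 8.95 untreated. It read 10.12, 10.35 and 10.23 in stimulated ElkKO cells and 9.66, 9.24 and 8.90 in untreated ones. The untreated knockouts were more spread out than the stimulated ones, and the lowest value came from ElkSapKO mouse 2, the array that stood apart. In SapKO cells it read 10.25, 10.39 and 10.47 after anti-CD3 and 9.26, 9.45 and 9.23 untreated. In WT cells it read 10.30, 10.50 and 10.25 after anti-CD3 and 9.34, 9.11 and 9.0 untreated. In each genotype all stimulated values lay above all untreated ones, and the stimulated groups ended at similar levels.

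The response of 1450644_at was 1.52 ± 0.20 in ElkSapKO (adjusted p = 0.00033), 0.96 ± 0.20 in ElkKO (adjusted p = 0.060), 1.06 ± 0.20 in SapKO (adjusted p = 0.016) and 1.2 ± 0.20 in WT (adjusted p = 0.0050), by limma as above. Averaged over genotypes it was 1.19 ± 0.10, a 2.27-fold rise (adjusted p = 1.2e-07). The second probe set, 1422528_a_at, gave 1.44 ± 0.18 in ElkSapKO (adjusted p = 0.00020), 0.94 ± 0.18 in ElkKO (adjusted p = 0.032), 1.13 ± 0.18 in SapKO (adjusted p = 0.0029) and 1.48 ± 0.18 in WT (adjusted p = 0.00013). Its mean response was 1.25 ± 0.09 (adjusted p = 1.2e-08), and both probe sets were higher in 12 of 12 mice. Stimulated values of 1422528_a_at spanned 7.42 to 7.89 in ElkSapKO, 7.32 to 7.72 in ElkKO, 7.37 to 7.68 in SapKO and 7.51 to 8.15 in WT, against 6.01 to 6.49, 6.42 to 6.68, 6.22 to 6.64 and 6.18 to 6.63 in the untreated cells of those genotypes.

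The calls of Zfp36l1 in the single knockouts moved with the processing in both directions. The mouse block follows the labels, but untreated ElkKO mouse 1 matched stimulated mouse 2 best (r = 0.69, against 0.13 for its own number). Untreated ElkKO mouse 2 matched stimulated mouse 1 best (r = 0.65, against 0.20), so the ElkKO result with that block is uncertain. With mouse as a block 1450644_at in SapKO had an adjusted p of 0.072 and 1422528_a_at in ElkKO one of 0.159, and each was also lost without single arrays of its own genotype (adjusted p of 0.051 to 0.133 without SapKO untreated mouse 1 or 3 or SapKO stimulated mouse 1, 2 or 3, and of 0.063 to 0.302 without any 1 of the 6 ElkKO arrays). In ElkKO 1450644_at, not called above, was called with dim probe sets left out (adjusted p = 0.036), with array weights (0.00061), as the brightest probe set of its gene (0.040), as the mean of both probe sets (0.0088), without untreated ElkKO mouse 1 (0.022) and without any 1 of the untreated ElkSapKO arrays (0.0026 to 0.046). The WT call of 1450644_at was lost without untreated mouse 3 (adjusted p = 0.051), and both ElkSapKO calls when that genotype was fitted alone (adjusted p = 0.682 and 0.278).

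Zfp36l2 changed little and its probe sets differed among themselves. The brightest, 1437626_at, read 11.05, 11.51 and 11.03 in ElkSapKO mice 1 to 3 after anti-CD3 and 10.55, 10.55 and 10.61 untreated. It read 11.27, 11.53 and 11.05 in stimulated ElkKO cells and 10.97, 10.83 and 10.67 in untreated ones. Untreated values of both knockouts lay below all untreated SapKO values. In SapKO cells it read 11.70, 11.60 and 11.79 after anti-CD3 and 11.32, 11.23 and 11.42 untreated. In WT cells it read 11.61, 11.71 and 11.75 after anti-CD3 and 11.25, 11.41 and 10.82 untreated. The stimulated value was the higher one in 12 of 12 mice and the groups did not overlap in any genotype, but the step was small.

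The response of 1437626_at was 0.63 ± 0.15 in ElkSapKO (adjusted p = 0.140), 0.46 ± 0.15 in ElkKO (adjusted p = 1.0), 0.37 ± 0.15 in SapKO (adjusted p = 1.0) and 0.53 ± 0.15 in WT (adjusted p = 0.343), none of which passed the threshold. With array weights the ElkSapKO response did pass (0.76, limma, adjusted p = 0.0041). Over the 4 genotypes together 1437626_at rose by 0.50 ± 0.08, or 1.41-fold (adjusted p = 0.00045). The other probe sets did not follow: 1451034_at had a mean response of 0.15 ± 0.14 (adjusted p = 0.968) and 1439054_at one of 0.02 ± 0.13 (adjusted p = 1.0). With the 3 probe sets averaged into 1 value, the mean response of Zfp36l2 was 0.22 ± 0.08 (adjusted p = 0.312). Over the 24 arrays, 1437626_at correlated with 1451034_at at r = 0.70 and with 1439054_at at r = −0.29, whereas the 2 probe sets of Zfp36l1 correlated at 0.93. These coefficients describe arrays that share the same 8 groups.

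Btg1 was strongly and evenly expressed. Its brightest probe set, 1426083_a_at, lay between 12.01 and 12.41 on all 24 arrays, with a median of 12.20. It read 12.27, 12.22 and 12.01 in stimulated ElkSapKO mice 1 to 3 and 12.12, 12.03 and 12.17 untreated, against 12.10, 12.16 and 12.18 in stimulated WT cells and 12.23, 12.15 and 12.21 in untreated WT cells. In ElkKO cells it read 12.13, 12.22 and 12.20 after anti-CD3 and 12.31, 12.30 and 12.17 untreated, and in SapKO cells 12.28, 12.19 and 12.41 after anti-CD3 and 12.31, 12.17 and 12.31 untreated. Stimulated and untreated values overlapped in every genotype. Its mean response was −0.01 ± 0.05, with a 95% interval of −0.11 to 0.09 (adjusted p = 1.0). Probe set 1437455_a_at, which ranged from 10.95 to 12.03, had a mean response of −0.01 ± 0.11 (adjusted p = 1.0). Probe set 1442018_at was higher after anti-CD3 in 12 of 12 mice, by 0.09 to 0.92, with a mean response of 0.34 ± 0.18 (adjusted p = 0.762) that passed the threshold with mouse as a block (adjusted p = 0.023).

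Btg2, which is known as a p53 target, showed no uniform change after anti-CD3, and its 2 probe sets moved in opposite directions in WT. Probe set 1416250_at read 11.002, 10.78 and 10.48 in ElkSapKO mice 1 to 3 after anti-CD3 and 11.53, 11.43 and 11.08 untreated. It read 12.11, 12.03 and 11.22 in stimulated ElkKO cells and 11.86, 11.94 and 11.22 in untreated ones. The stimulated value was the lower one in each ElkSapKO mouse, and ElkKO mouse 3 stood below the other 2 in both states. In SapKO cells it read 11.31, 11.42 and 11.34 after anti-CD3 and 11.65, 11.92 and 11.78 untreated. In WT cells it read 11.80, 11.86 and 11.29 after anti-CD3 and 11.89, 11.96 and 11.89 untreated. The stimulated value was the higher one in 2 of 12 mice, both ElkKO.

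The mean response of 1416250_at was −0.29 ± 0.11 (adjusted p = 0.367). It passed the threshold with mouse as a block (adjusted p = 0.015) and with array weights (adjusted p = 0.034). By genotype it was −0.59 ± 0.22 in ElkSapKO, 0.11 ± 0.22 in ElkKO, −0.43 ± 0.22 in SapKO and −0.27 ± 0.22 in WT. None of these was called, but with array weights the ElkSapKO response was (−0.72, limma, adjusted p = 0.036). Probe set 1448272_at had a mean response of −0.09 ± 0.11 (adjusted p = 0.987) and was higher after anti-CD3 in 5 of 12 mice. Its response was −0.59 ± 0.21 in ElkSapKO, 0.18 ± 0.21 in ElkKO, −0.26 ± 0.21 in SapKO and 0.30 ± 0.21 in WT, none of them called. The ElkSapKO value was −0.30 without untreated mouse 2, the array that stood apart. The 2 probe sets of Btg2 correlated at r = 0.53 over the 24 arrays.

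**Figure D2:**
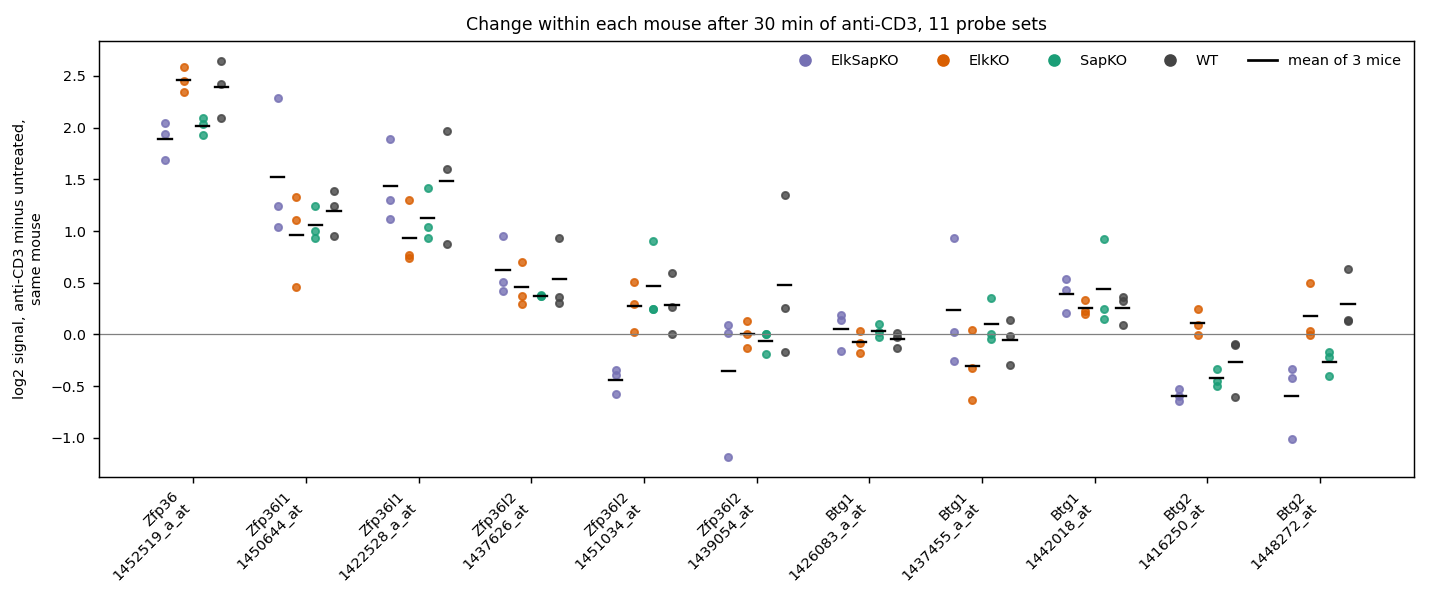
Log2 signal after anti-CD3 minus untreated in the same mouse (vertical axis) for the 11 probe sets, coloured by genotype, with a bar for the mean of 3 mice. Zfp36 and both Zfp36l1 probe sets lie above 0 in 12 of 12 mice, with Zfp36 at 1.69 to 2.65, and Btg1 probe set 1426083_a_at lies between −0.18 and 0.19.

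Counted over the members, 3 of 11 probe sets rose in ElkSapKO, where 0.244% of all probe sets were called higher. In ElkKO 2 of 11 rose, against a background of 0.144%, in SapKO 3 of 11, against 0.24%, and in WT 3 of 11, against 0.229%. In the mean over genotypes 4 of 11 rose, against 1.02% of all probe sets, and 0 of 11 fell. The called probe sets were those of Zfp36 and Zfp36l1, with 1437626_at of Zfp36l2 added in the mean. At an unadjusted p under 0.05 the numbers were 6 in ElkSapKO, 4 in ElkKO, 4 in SapKO, 4 in WT and 5 in the mean, against 7.32%, 2.68%, 2.47%, 4.93% and 7.73% of all probe sets. The median response of the 11 was 0.15 in the mean over genotypes and 0.00 over all probe sets tested. Since the members were chosen with earlier results of these data known, these counts describe them and do not test for an excess.

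In stimulated cells Zfp36 averaged 10.29 ± 0.30 in ElkSapKO, 11.09 ± 0.17 in ElkKO, 11.11 ± 0.16 in SapKO and 11.28 ± 0.03 in WT (SD, n = 3 each), an order in which the ElkSapKO step was wider than the SD on either side and ElkKO and SapKO could not be separated. Untreated, the averages were 8.40 ± 0.31, 8.63 ± 0.17, 9.09 ± 0.09 and 8.89 ± 0.31 in that order of genotypes, with SapKO above WT. Stimulated Zfp36l1 1450644_at averaged 10.18 ± 0.18, 10.23 ± 0.12, 10.37 ± 0.11 and 10.35 ± 0.13 in that order, and the ranges of all 4 genotypes overlapped. For Zfp36l2 1451034_at the averages were 6.17 ± 0.07 in ElkSapKO and 7.07 ± 0.51 in ElkKO, against 8.29 ± 0.29 in SapKO and 8.05 ± 0.61 in WT after anti-CD3, and 6.61 ± 0.18 and 6.79 ± 0.31 against 7.83 ± 0.20 and 7.76 ± 0.38 untreated. The stimulated ElkKO and WT ranges overlapped, at 6.48 to 7.37 and 7.34 to 8.42. Stimulated Btg2 1416250_at averaged 10.75 ± 0.26 in ElkSapKO, 11.78 ± 0.49 in ElkKO, 11.36 ± 0.05 in SapKO and 11.65 ± 0.31 in WT, with ElkSapKO below all other groups and the ElkKO and WT ranges overlapping.

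The genotypes were then compared at each state, to ask where the members stood without 1 or both ternary complex factors. In ElkSapKO cells after anti-CD3, Zfp36, both probe sets of Btg2 and 1 of 3 probe sets of Zfp36l2 were lower than in WT, while neither Zfp36l1 nor Btg1 was called. Zfp36 was 1.98-fold lower: the stimulated ElkSapKO mice spanned 9.99 to 10.60 and the WT mice 11.25 to 11.31, a difference of −0.99 ± 0.17 (adjusted p = 0.0041). In untreated cells the ElkSapKO values of 8.05 to 8.60 touched the WT values of 8.60 to 9.22, and the difference was −0.49 ± 0.17 (adjusted p = 0.102), which passed the threshold with median centring (−0.58, adjusted p = 0.040), with array weights (−0.77, adjusted p = 0.00011) and without untreated ElkSapKO mouse 3 (−0.57, adjusted p = 0.042).

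Zfp36l2 probe set 1451034_at showed the widest gap of the 11. It read 6.09, 6.23 and 6.19 in stimulated ElkSapKO mice 1 to 3, against 8.42, 8.37 and 7.34 in stimulated WT mice. In untreated cells it read 6.49, 6.81 and 6.53 in ElkSapKO, against 7.83, 8.10 and 7.34 in WT. The groups did not overlap in either state, and WT mouse 3 was the lowest WT mouse in both. The difference was −1.87 ± 0.27 after anti-CD3, 3.66-fold lower (adjusted p = 0.0011), and −1.15 ± 0.27 untreated, 2.22-fold lower (adjusted p = 0.018).

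The brightest Zfp36l2 probe set, 1437626_at, spanned 11.03 to 11.51 in stimulated ElkSapKO cells, against 11.61 to 11.75 in WT, and 10.55 to 10.61 in untreated ElkSapKO cells, against 10.82 to 11.41 in WT. The difference was −0.49 ± 0.15 after anti-CD3 (adjusted p = 0.058) and −0.59 ± 0.15 untreated, 1.5-fold lower (adjusted p = 0.029). The first passed the threshold with median centring and with dim probe sets left out (adjusted p = 0.035 in each), and without untreated WT mouse 3 or ElkSapKO mouse 2 untreated or stimulated (adjusted p of 0.036 to 0.039). Probe set 1439054_at differed by −0.24 ± 0.26 after anti-CD3 and by 0.60 ± 0.26 untreated, and neither was called (adjusted p = 0.668 and 0.175). The untreated difference was 0.21 without untreated ElkSapKO mouse 2, the array that stood apart (adjusted p = 0.684), and was called at 0.85 without untreated ElkSapKO mouse 3 (adjusted p = 0.030). With the 3 averaged into 1 value, the difference was −0.87 ± 0.16 after anti-CD3 (adjusted p = 0.0037) and −0.38 ± 0.16 untreated (adjusted p = 0.163). The 3 probe sets of this gene thus gave differences of unlike size, and which part of the transcript each one covers was not examined.

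Both probe sets of Btg2 were lower in stimulated ElkSapKO cells. Probe set 1416250_at spanned 10.48 to 11.002, against 11.29 to 11.86 in WT, a difference of −0.90 ± 0.22 or 1.86-fold lower (adjusted p = 0.020). Probe set 1448272_at read 9.57, 10.03 and 10.03, against 10.67, 10.86 and 10.67 in WT, a difference of −0.86 ± 0.21 or 1.82-fold lower (adjusted p = 0.021). Neither pair of groups overlapped. In untreated cells the differences were −0.57 ± 0.22 (adjusted p = 0.125) and 0.03 ± 0.21 (adjusted p = 0.941), with untreated 1448272_at at 9.99, 11.04 and 10.37 in ElkSapKO, against 10.54, 10.73 and 10.04 in WT. The difference of 1448272_at turned to −0.26 without untreated ElkSapKO mouse 2, the array at 11.04 (adjusted p = 0.514), and to −0.39 with array weights, where it was called (adjusted p = 0.042).

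In all, 4 of 11 probe sets were lower in ElkSapKO after anti-CD3, where 4.28% of all probe sets were called lower and 6.36% in either direction. Untreated, 2 of 11 were lower, both of Zfp36l2, against 4.16% lower and 5.34% in either direction. None of the 11 was called higher, against 2.08% of all probe sets after anti-CD3 and 1.18% untreated. With array weights 2 probe sets of Btg1 were called higher untreated (0.65 for 1437455_a_at, adjusted p = 0.0023, and 0.96 for 1442018_at, adjusted p = 0.0098), where the unweighted differences were 0.25 and 0.38. In each state 6 of 11 had an unadjusted p under 0.05, against 21.8% of all probe sets after anti-CD3 and 23.4% untreated. Their median difference was −0.24 after anti-CD3 and −0.09 untreated, against 0.03 and 0.05 over all probe sets tested. Btg1 had differences of 0.01 ± 0.10, 0.54 ± 0.23 and 0.52 ± 0.37 at its 3 probe sets after anti-CD3 (adjusted p = 0.958, 0.160 and 0.449). The Zfp36l1 probe sets differed by −0.17 ± 0.20 and −0.13 ± 0.18 after anti-CD3 (adjusted p = 0.684 and 0.749).

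The Actb difference given above was also largest in ElkSapKO, and its part in these differences was not tested. WT mice 1 and 2 had a low dap spike-in that no ElkSapKO mouse had. With the spike-in level as a block the calls of Zfp36 and of 1451034_at after anti-CD3 held, while those of Btg2 after anti-CD3 and of Zfp36l2 untreated were lost. The Btg2 differences in that fit were −0.85 for 1416250_at (adjusted p = 0.0995) and −0.71 for 1448272_at (adjusted p = 0.132), and the untreated Zfp36l2 differences −0.47 for 1437626_at (adjusted p = 0.149) and −0.78 for 1451034_at (adjusted p = 0.122). Those calls were also lost without WT mouse 1 or 2 of the same state (adjusted p of 0.059 to 0.136) and without certain ElkSapKO arrays (untreated mouse 1 for Zfp36l2, adjusted p = 0.068 and 0.056; stimulated mouse 2 or 3 for 1416250_at, 0.062 and 0.051; stimulated mouse 1 for 1448272_at, 0.131). With only the compared groups in the fit, Zfp36 after anti-CD3 had an adjusted p of 0.053, Btg2 of 0.084 and 0.061, and untreated Zfp36l2 of 0.468 and 0.269.

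**Figure D3:**
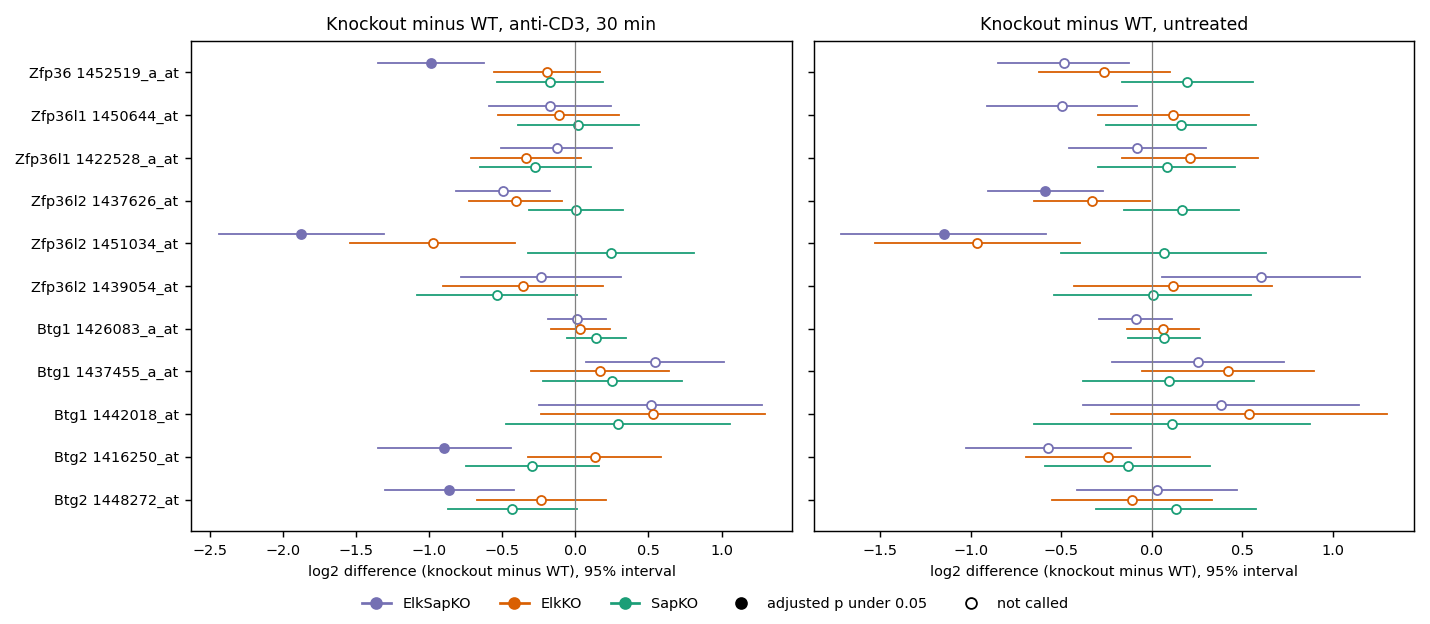
Log2 difference, knockout minus WT, with its 95% interval (horizontal axis), for the 11 probe sets in stimulated and untreated cells, filled where the adjusted p was under 0.05. ElkSapKO points of Zfp36 (−0.99), Zfp36l2 1451034_at (−1.87) and Btg2 (−0.90 and −0.86) are filled after anti-CD3, and no ElkKO or SapKO point is filled in either state.

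Neither single knockout gave a call among the members. In ElkKO 0 of 11 probe sets were called in either direction after anti-CD3 and untreated, against 0.144% and 0.0933% of all probe sets, and in limma 2 of 11 had an unadjusted p under 0.05 in each state, against 12.6% after anti-CD3 and 8.6% untreated. These were the Zfp36l2 probe sets 1437626_at and 1451034_at. Probe set 1451034_at read 7.37, 7.37 and 6.48 in ElkKO mice 1 to 3 after anti-CD3, against 8.42, 8.37 and 7.34 in WT, and 6.86, 7.07 and 6.46 in untreated ElkKO mice, against 7.83, 8.10 and 7.34 in WT. The untreated groups did not overlap. The differences were −0.98 ± 0.27 (adjusted p = 0.141) after anti-CD3 and −0.97 ± 0.27 (adjusted p = 0.196) untreated. The first passed the threshold without stimulated WT mouse 3 (−1.33, adjusted p = 0.043) and the second with array weights (−0.82, adjusted p = 0.029). All ElkKO arrays had the high dap spike-in, as did WT mouse 3 but not WT mice 1 and 2. The Actb excess was 0.495 in ElkKO and 0.224 in WT, and its part in these differences was not tested.

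In SapKO 0 of 11 probe sets were called after anti-CD3 and untreated, against 0.0755% and 0.0888% of all probe sets, and in limma 0 of 11 had an unadjusted p under 0.05 in either state, against 3.37% and 1.73%. Zfp36 differed from WT by −0.17 in stimulated SapKO cells (95% interval −0.54 to 0.19) and by −0.19 in stimulated ElkKO cells (95% interval −0.55 to 0.17). In both, all 3 stimulated values (10.92 to 11.20 in SapKO, 10.90 to 11.24 in ElkKO) lay below the WT range, by margins that did not pass the test. Stimulated SapKO values of Btg2 1448272_at (10.28 to 10.34) also lay below the WT range (10.67 to 10.86). That difference was −0.43 (95% interval −0.87 to 0.01), while Btg2 1416250_at overlapped WT, at −0.29. Zfp36l2 1439054_at lay below WT as well (−0.53) and Btg1 1426083_a_at above it (0.14), none of them called. Zfp36l2 1451034_at read 8.58, 8.00 and 8.30 in stimulated SapKO cells and 7.67, 7.76 and 8.05 untreated. The untreated values lay within the WT range, and 1 stimulated value, that of mouse 1, lay above it.

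Whether the response itself differed between a knockout and WT was tested as a difference of differences. In ElkSapKO 0 of 11 probe sets passed, against 0.00222% of all probe sets, in ElkKO 0 of 11, against 0%, and in SapKO 0 of 11, against 0.00222%. In limma 2, 1 and 0 of 11 had an unadjusted p under 0.05 in these genotypes, against 5.19%, 1.37% and 1.06% of all probe sets. The response of Zfp36 in ElkSapKO differed from that in WT by −0.50 on the log2 scale, with a 95% interval of −1.01 to 0.01 (limma, adjusted p = 0.729). For Zfp36l1 1450644_at this difference was 0.33, with an interval of −0.26 to 0.91 (adjusted p = 0.741), and 0.03 without untreated ElkSapKO mouse 2. These intervals leave room for differences in response about as large as the differences in level reported above.

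Other parts of the decay machinery were looked at as a group of 36 genes (CCR4-NOT and PAN2-PAN3 deadenylases, decapping factors, Xrn1, poly(A)-binding proteins, TOB and BTG relatives, and other proteins that bind AU-rich or stem-loop elements), of which 34 were measured. In the mean response 1 of 34 rose, where 1.02% of all probe sets were called higher, and 0 fell, and in the responses of the 4 genotypes 0 of 34 were called. The gene was Tob2, a BTG/TOB adaptor that binds the CCR4-NOT deadenylase. Its probe set, of a kind that can also match other genes, spanned 9.32 to 9.46 in stimulated ElkSapKO, 9.08 to 9.64 in ElkKO, 9.57 to 9.85 in SapKO and 9.39 to 9.72 in WT cells, against 6.53 to 8.81, 8.78 to 9.12, 8.79 to 8.98 and 8.51 to 8.86 in the untreated cells of those genotypes. The mean response was 0.85 ± 0.18 (adjusted p = 0.013), and 0.67 without untreated ElkSapKO mouse 2, the array at 6.53 (adjusted p = 3.8e-06). The median response of the list was −0.03, against 0.00 over all probe sets.

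In ElkSapKO against WT, 2 of these 34 genes were higher and 3 lower after anti-CD3, and 0 were higher and 4 lower untreated. Of all probe sets, 2.08% were higher and 4.28% lower after anti-CD3, and 1.18% higher and 4.16% lower untreated. Pabpc4, a cytoplasmic poly(A)-binding protein, was lower in both states: stimulated cells spanned 8.23 to 8.43, against 9.09 to 9.25 in WT (−0.85 ± 0.12, adjusted p = 0.00093), and untreated cells 8.00 to 8.57, against 9.30 to 9.33 in WT (−1.03 ± 0.12, adjusted p = 0.00016). The Pabpc4 probe set, like that of Tob2, is of a kind that can also match other genes. Among CCR4-NOT subunits, Cnot11 was lower in both states (−0.61 ± 0.17 after anti-CD3, adjusted p = 0.040, and −0.65 ± 0.17 untreated, adjusted p = 0.032), Cnot3 after anti-CD3 (−1.23 ± 0.32, adjusted p = 0.026), and Cnot8 (−0.55 ± 0.14, adjusted p = 0.023) and Cnot2 (−0.45 ± 0.13, adjusted p = 0.045) untreated. Xrn1, the exonuclease that degrades decapped RNA, was higher after anti-CD3 (0.80 ± 0.20, adjusted p = 0.026), as was Tia1, a protein that binds U-rich sequences (0.41 ± 0.12, adjusted p = 0.046). Without untreated ElkSapKO mouse 2 the untreated calls of Cnot2, Cnot8 and Cnot11 were lost (adjusted p = 0.154, 0.079 and 0.101), and that of Pabpc4 held (−0.89, adjusted p = 0.00051). The calls after anti-CD3 were kept in 32 of 32 alternatives for Pabpc4, 25 for Cnot3, 22 for Cnot11, 26 for Xrn1 and 9 for Tia1. The untreated calls were kept in 31 of 32 for Pabpc4, 25 for Cnot11, 24 for Cnot8 and 11 for Cnot2. The untreated Cnot2 difference ran from −0.56 to 0.04 over these alternatives. None of the 34 was called in ElkKO or SapKO against WT, where 7 and 1 had an unadjusted p under 0.05 in limma in each state, beside the shares of all probe sets given above.

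Transcripts known as targets of the Zfp36 family were taken as a second list of 30 genes, all measured, of which 14 had a mean signal of at least 6. This list and that of the decay machinery were also chosen with earlier results of these data known. In the mean response 6 of 30 rose and 0 fell, with a median of 0.10 over the list, where 1.02% of all probe sets were called higher and the median was 0.00. The largest was Fos, the immediate early transcription factor, which spanned 9.47 to 10.1 in stimulated ElkSapKO, 10.6 to 11.5 in ElkKO, 10.1 to 10.4 in SapKO and 10.9 to 11.2 in WT cells, against 5.51 to 6.07, 5.38 to 9.06, 5.95 to 6.93 and 6.03 to 7.37 untreated. Its mean response was 4.11 ± 0.28 (adjusted p = 5.2e-09). Plk3, a stress-linked kinase, rose by 1.67 ± 0.12 (adjusted p = 6.4e-09), Dusp1, a phosphatase that acts on MAP kinases, by 0.95 ± 0.11 (adjusted p = 1.4e-05), the chemokine Ccl3 by 0.71 ± 0.10 (adjusted p = 0.00018), the survival factor Bcl2 by 0.69 ± 0.11 (adjusted p = 0.00042) and the cytokine Tnf by 0.67 ± 0.12 (adjusted p = 0.0021). Ccl3 did not rise in ElkKO, with means of 3.48 untreated and 3.47 stimulated. Its untreated and stimulated means were 3.55 and 4.39 in ElkSapKO, 3.42 and 5.02 in SapKO and 3.45 and 3.87 in WT.

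Within genotypes, Fos and Plk3 rose in all 4, Dusp1 was called in ElkSapKO as well (1.08 ± 0.22, adjusted p = 0.039, lost with mouse as a block at 0.091 and without untreated mouse 2 at 0.215), and Ccl3 in SapKO (1.60 ± 0.20, adjusted p = 0.00019). The Plk3 call in ElkSapKO was lost with mouse as a block (limma, adjusted p = 0.053) and kept in 27 of 31 alternatives. The Dusp1 call in ElkSapKO was kept in 18 of 32, and the Fos call in ElkKO in 31 of 32. In all, 3 of 30 rose in ElkSapKO, 2 in ElkKO, 3 in SapKO and 2 in WT, where 0.244%, 0.144%, 0.24% and 0.229% of all probe sets were called higher. In knockouts against WT the list gave 1 call: Ccl3 was higher in stimulated SapKO cells, where 0.0755% of all probe sets were called, at 4.57 to 5.59 against 3.63 to 4.18 in WT (1.15 ± 0.20, adjusted p = 0.022, and 25 of 31 alternatives kept the call). Signals of Ccl3 lay mostly within the range of Xist, which reached 5.07, and untreated Plk3 lay on both sides of its upper end, at 4.52 to 5.73. The levels of Ccl3 and of untreated Plk3 are therefore near background, while stimulated Plk3 spanned 6.06 to 7.16. No transcript half-life was measured, and the list says nothing about which of its genes are bound in these cells.

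**Figure D4:**
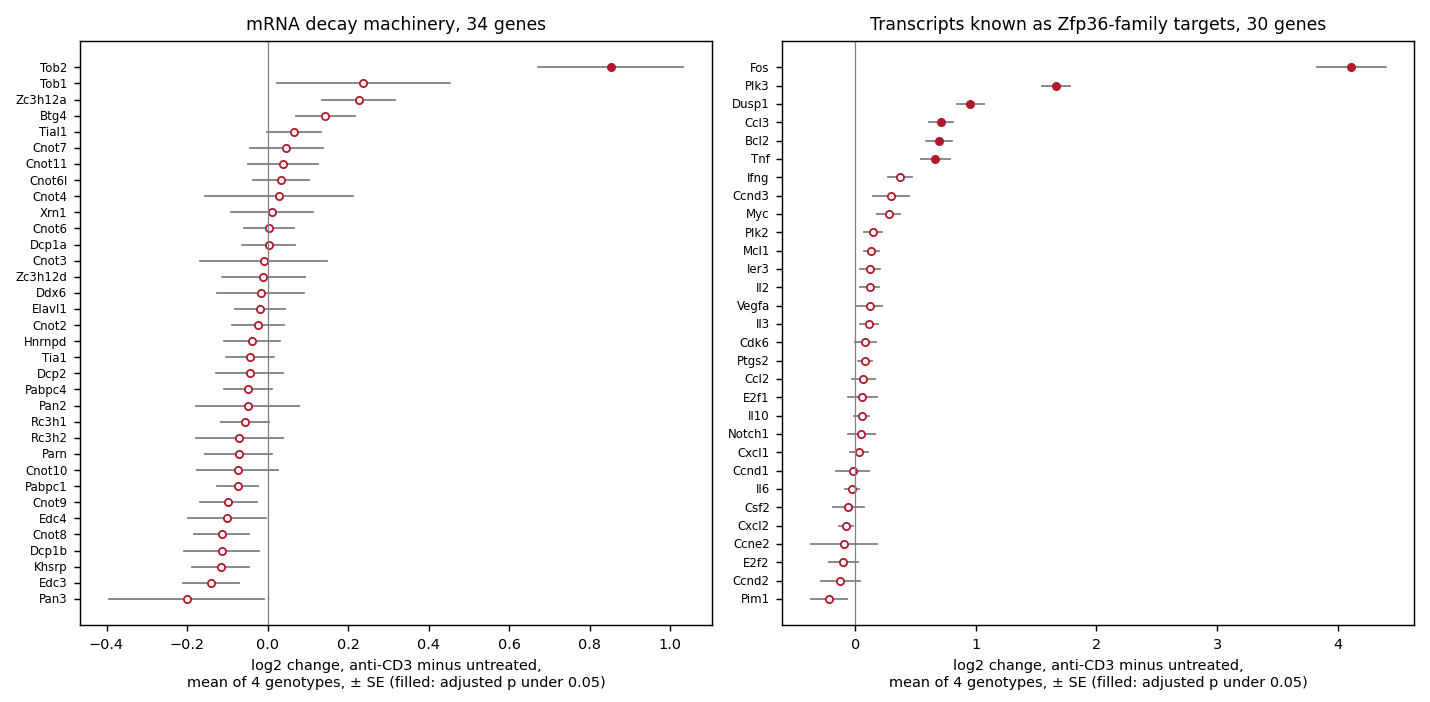
Mean log2 response over the 4 genotypes, anti-CD3 minus untreated, ± SE (horizontal axis), for 34 decay machinery genes and 30 transcripts known as targets of the Zfp36 family, filled where the adjusted p was under 0.05. Tob2 (0.85) is the only filled point of the machinery list, and Fos (4.11), Plk3 (1.67), Dusp1, Ccl3, Bcl2 and Tnf are filled among the targets.

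The genes whose signals ran most like each member's brightest probe set over the 24 arrays were found among 8117 genes with a mean of at least 6, as a description without a test. For Zfp36 these were Ier2 (Pearson r = 0.987), Dusp2 (0.986) and Nfkbid (0.984). For Zfp36l1 they were Stk17b (0.961), Med7 (0.958) and Cd69 (0.952), the last an early surface marker of T cell activation. For Zfp36l2 they were Rlim (0.869), Rnf44 (0.859) and Siah2 (0.856), for Btg2 Fli1 (0.857), Rhoh (0.836) and Cxcr4 (0.828), and for Btg1 Stx6 (0.832), B2m (0.742) and Lbr (0.720). The coefficients of Zfp36 and Zfp36l1 span 2 separate clusters of arrays, stimulated and untreated, and all arrays share the same 8 groups.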

How the data were processed

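RNA of 24 samples was hybridised to 1-colour arrays. The values are log2 signals deposited by the authors, made by RMA with the affy package, per the submitters' processing notes; RMA corrects background, quantile normalizes arrays and combines the probes of a probe set, so values are relative within the series and small fold changes are compressed. Their versions were not given in the sources used here. Of 45101 probe sets, 64 controls were left out, no value was missing, and 0 value columns lacked a sample. Gene symbols came from the platform annotation.

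The remaining 45037 probe sets were fitted with limma 3.58.1 in R 4.3.3 (8 group means, 16 residual degrees of freedom, moderated variances). The 14 contrasts were each adjusted by the Benjamini-Hochberg method, and a probe set rose, fell or was called at an adjusted p under 0.05. P values were two-sided, errors are SE unless SD is stated, and tables and figures used Python 3.11.15 with pandas 2.3.3 and matplotlib 3.10.9. Untreated and stimulated arrays with the same number come from the same mouse, per the labels; after removal of group means the 12 pairs correlated at 0.12 to 0.85 over 16608 probe sets, and 9 untreated arrays matched their own number best. The exceptions were ElkKO mice 1 and 2, which matched each other, and ElkSapKO mouse 2. The labels were followed, so changes within ElkKO mice 1 and 2 and ElkKO fits with mouse as a block are uncertain. Fits with mouse as a block were an alternative, as were median centring, leaving out probe sets with a mean under 6, fitting only the compared groups, array weights, 1 value per gene (brightest probe set or mean), a block for the spike-in level and leaving out each array. Tested on simulated data of the WT response (45037 probe sets), the fit recovered 75% of 2-fold and 97% of 4-fold changes, and 10 of its 182 calls were false. The simulated noise was normal, independent between arrays and equal in spread on all arrays of a probe set. It held no correlation within mice and no array that stood apart, so these rates may differ in the real data.

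Every probe set of the 5 genes is named, with the brightest in full; of the 2 gene lists, read at the brightest probe set per gene, called genes are named. The 3 most similar genes per member were taken by Pearson r. The members and lists were chosen with earlier results of these data known, and the lists were written from general knowledge. Contrasts between the responses of knockouts were added after seeing the data.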

Additional observations from a re-analysis of the deposited data

Results flagged for a closer look

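In the responses of 2 probe sets, every mouse of one genotype changed one way after anti-CD3 and every mouse of another the opposite way. The rule was applied only to the 11 member probe sets, and its share over all probe sets was not counted. Whether the members stand out by this rule is therefore not known. It also follows the mouse numbers, and the arrays of ElkKO mice 1 and 2 matched each other best. The ElkKO changes of Btg2 1448272_at were −0.001, 0.50 and 0.03 in mice 1 to 3, so exchanged numbers could alter what is flagged. Btg2 probe set 1448272_at changed by −1.01 to −0.34 in the 3 ElkSapKO mice, against 0.13 to 0.63 in the 3 WT mice, a difference between responses of −0.89 (limma, adjusted p = 0.729), and of −0.60 without untreated ElkSapKO mouse 2, the array that stood apart. In SapKO mice it changed by −0.40 to −0.17, and the difference from WT was −0.56 (adjusted p = 1.0). Zfp36l2 probe set 1451034_at changed by −0.58 to −0.34 in the ElkSapKO mice, against 0.24 to 0.91 in SapKO mice and 0.02 to 0.51 in ElkKO mice. The differences between responses were −0.90 against SapKO (limma, adjusted p = 0.958) and −0.71 against ElkKO (adjusted p = 0.875), in contrasts added after seeing the data. None of the 4 differences passed the threshold, and their causes were not tested. WT mouse 3 gave the same value of 7.34 on both arrays of 1451034_at, so WT did not count as moving one way in every mouse.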

How the results depend on the processing

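Of 4749 values of single probe sets and contrasts recomputed under 32 alternatives, 4676 stayed on their side of the threshold, 44 lost a call, 28 gained one and 1 gained one with its sign turned: Btg2 1448272_at in untreated ElkSapKO against WT, at −0.39 with array weights (adjusted p = 0.042), in place of 0.03. That difference, uncalled, was also below 0 without untreated ElkSapKO mouse 2 (−0.26), without untreated WT mouse 3 (−0.17) and with median centring (−0.06). In the ElkKO response 1 member probe set was called, in place of 2, with mouse as a replicate block, with median centring and with only the compared groups in the fit, and 3 with dim probe sets left out and with array weights. In the ElkSapKO response there were 0 calls with only the compared groups and 5 with array weights, in place of 3. Untreated ElkSapKO against WT gave 0 calls with only the compared groups, 0 with the spike-in block and 6 with array weights, in place of 2, and after anti-CD3 it gave 1 with only the compared groups and 2 with the spike-in block, in place of 4, and 5 with median centring and with dim probe sets left out. Untreated ElkKO against WT gave 1 call with array weights, in place of 0. Leaving out each array in turn gave 2 to 3 calls in the WT response, 2 to 3 in SapKO, 1 to 3 in ElkKO, 3 to 3 in ElkSapKO and 4 to 4 in the mean, 0 to 5 in untreated and 2 to 5 in stimulated ElkSapKO against WT, 0 to 1 in stimulated ElkKO against WT, and 0 to 0 in the other contrasts. With the replicate block 4 of 11 became 6 in the mean response. In limma the ElkKO call of Zfp36l1 1422528_a_at was also lost with median centring (adjusted p = 0.106) and with only the compared groups in the fit (0.054). It was lost as well without untreated SapKO mouse 1 (0.051). The causes of these shifts were not tested. Since 75% of simulated 2-fold changes were recovered, smaller differences can be missed with 3 mice per group.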
